A study of Mus musculus with 5 samples.

Results

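Gap junction channels join the cytoplasm of neighbouring cells, and the genes described here are the connexins Gja1, Gja4, Gjb2, Gjb5, Gjb6 and Gjc1 and the related channel gene Panx1. They were taken by gene symbol from a table of 17657 genes, in which all 7 were found. RNA had been sequenced from cultured epidermal stem cells, the keratinocyte progenitors of skin. Wild-type cells (WT, 3 libraries: WT1, WT2 and WT3) were compared with cells of Angptl4 knockout mice (KO, 2 libraries: KO1 and KO2). Angptl4 encodes a secreted inhibitor of lipoprotein lipase. All mice were male C57BL/6, labelled 8 weeks, and all cells were grown in KGM2, a keratinocyte growth medium. The labels name no treatment, do not describe the knockout allele, and do not say whether each library is its own animal or culture. The p-values therefore speak only of the spread among these 5 libraries, and that spread may be technical.

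A connexon is a ring of connexin proteins in the membrane of a cell, and a pair of connexons on facing cells forms a gap junction channel that passes ions and small metabolites. Keratinocytes carry several connexins at once, with Gja1 (connexin 43) typical of the basal and lower spinous layers and Gjb2 and Gjb6 (connexins 26 and 30) known for their induction in wounded or hyperproliferative epidermis and for inherited deafness and skin disease when mutated. Pannexins resemble connexins in membrane topology but mainly form channels of single membranes, through which ATP leaves the cell.

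The libraries held 20283084 to 20773407 expected counts, and levels are given in CPM, counts scaled by library size and TMM factor. Angptl4 stood at 4.13 to 6.97 CPM in the WT libraries and 0.832 and 1.06 CPM in KO1 and KO2. Over all genes the KO libraries varied more than the WT libraries, with a biological coefficient of variation of 28.9% against 5.21%. The basal keratinocyte markers, such as Krt5 and Krt14, summed to 37800 to 38800 CPM in WT and to 50500 and 40400 CPM in KO1 and KO2, so the labelled cell type matched its markers in all 5 libraries. Krt5 and Krt14 carry most of this sum and were not called, while the basal markers Itga6 and Trp63 fell (log2 changes -0.91 and -0.73, edgeR adjusted p = 0.00413 and 0.00518). Differentiating keratinocyte markers summed to 607 to 840 CPM in WT and 1060 and 1150 CPM in KO1 and KO2, pericyte and smooth muscle markers to 346 to 394 CPM and to 2170 and 903 CPM, and fibroblast markers to 468 to 482 CPM and to 780 and 379 CPM. Of these lists 3 of 8 basal, 2 of 9 differentiation, 5 of 6 pericyte and smooth muscle and 4 of 10 fibroblast markers tested rose, and 2 basal and 1 differentiation marker fell, where 20.4% of all tested genes rose and 20.4% fell. Cspg4, Pdgfrb, Postn and Dcn, at most 0.244 CPM in any WT library, passed the filter on low counts only through KO. Krt15 of the basal list, at most 0.499 CPM in WT, did so too. A rise was the only call open to these genes, so the shares that rose cannot be judged against the background. Rgs5, Des, Abcc9 and Myh11 of the pericyte and smooth muscle list stayed under 1 CPM in every library and were not tested. Fbln2, which was not called, carried most of the fibroblast sum (383 to 403 CPM in WT, 566 in KO1 and 275 in KO2). Acta2 carried most of the pericyte and smooth muscle sum (230 to 262 CPM in WT, 1746 in KO1 and 581 in KO2). Sbsn, which was not called, carried most of the differentiation sum (464 to 619 CPM in WT, 581 in KO1 and 934 in KO2). Krt1 added 333 CPM in KO1 but 36.9 in KO2, so the similar sums of KO1 and KO2 were made up differently. Tgm1 was the differentiation marker that fell (log2 change -0.97). Melanocyte markers summed to 6.25 to 7.8 CPM in WT and to 10.8 and 15.0 CPM in KO1 and KO2 (1 of 6 rose), and immune markers to 0.629 to 7.29 and to 5.97 and 9.14 CPM (0 of 4 changed by edgeR), with Cd3e at 0 in all WT libraries. The part of these cell types in the connexin results was not tested. In bulk RNA, fewer cells of a type and less RNA per cell cannot be told apart.

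Of the 7 genes, Gja1 was the only one to pass the test between KO and WT in the fit of all libraries, and it fell. The test was edgeR's quasi-likelihood test with Benjamini-Hochberg adjustment over 12957 tested genes and a threshold of 0.05 on the adjusted p. All 7 genes passed the filter on low counts, Gjc1 with a level above the filter's minimum in the WT libraries and KO1 but not in KO2. The 1 of 7 lower (14.3%) is to be read against 20.4% of all tested genes lower in KO, and the 0 of 7 higher against 20.4% higher. It is no larger a share than the background. At an unadjusted p under 0.05 (edgeR), 3 of the 7 were lower and 0 higher. The share of all tested genes at this threshold is not given here, but it is at least the 20.4% called after adjustment in each direction. This count is therefore not read as a result about the 7 genes. For 6 of the 7 the KO pair lay under the whole WT range, as 33.9% of all tested genes did; for 0 of the 7 it lay above, against 32.5%. The median log2 change of the 7 was -0.79, beside 0.02 over all tested genes.

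How many of the 7 passed depended on the fit, and so did the background. DESeq2 called 3 lower (background 22.1%) and 0 higher (21.9%), and limma-voom 2 lower (21.1%) and 0 higher (19.4%). Without WT1 the test called 1 lower (7.6%) and 0 higher (7.62%), without WT2 1 lower (8.94%) and 0 higher (8.81%), and without WT3 2 lower (8.77%) and 0 higher (8.68%). Without KO1 it called 4 lower (30.5%) and 0 higher (29.3%), and without KO2 3 lower (30.9%) and 1 higher (30.0%). These last fits give the lone KO library the variation seen in WT. On TPM, limma called 2 lower in each of 3 versions (21.5%, 20% and 23.5%) and 0 higher (17.9%, 17.0% and 17.9%). With a separate spread per group, limma-voom called 1 lower, Gja1 (12.1%), and 0 higher (12.5%). With the replicate number as a block, edgeR called 1 lower (6.13%) and 0 higher (6.21%). The gene called lower was Gjb2 (edgeR adjusted p = 0.024) and not Gja1 (edgeR adjusted p = 0.0785). WT3 is alone in its block there and adds nothing to the contrast of KO and WT. The log2 changes of Gjb2 (-1.08) and Gja1 (-0.51) were those of the fit without WT3.

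**Figure D1:**
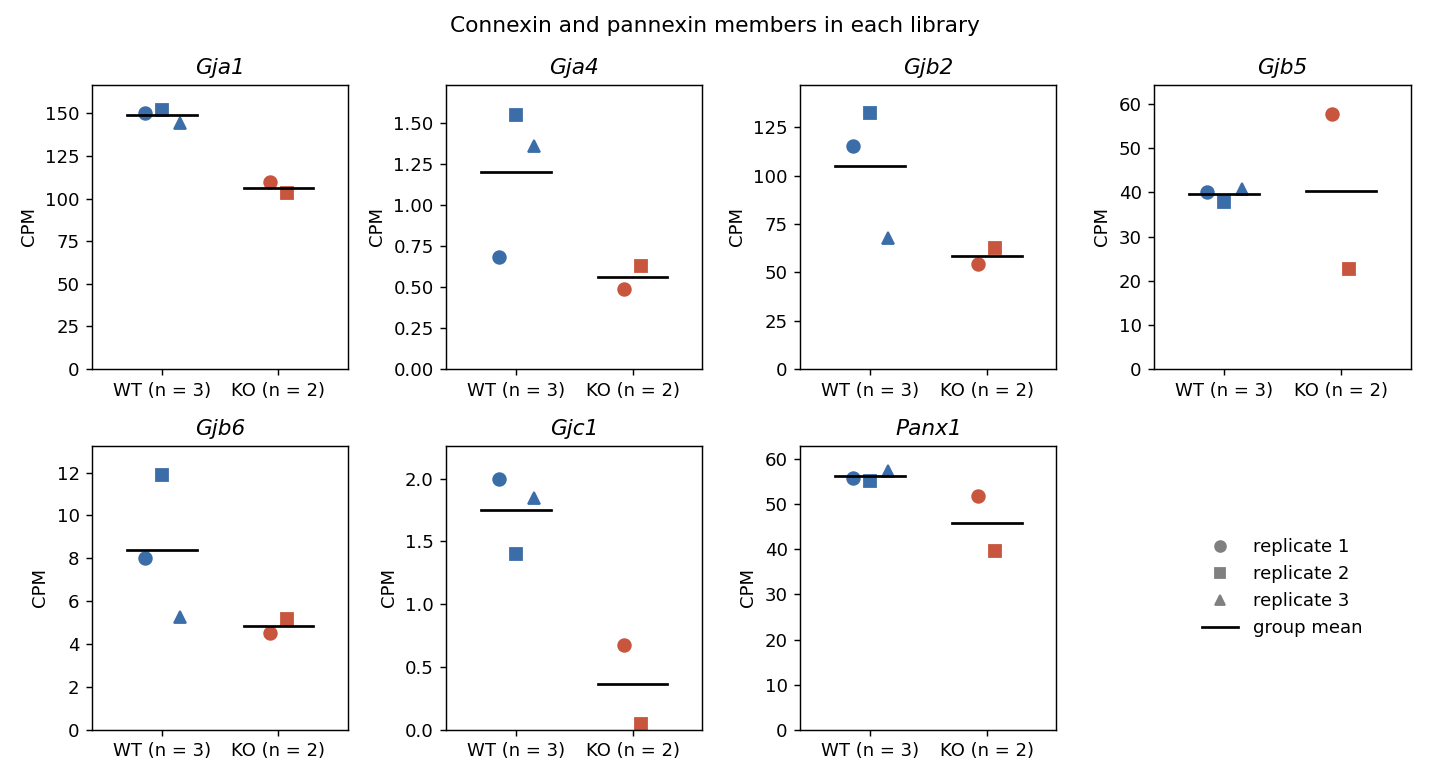
Level of each of the 7 genes in CPM (linear axis from 0, its own scale for each gene) in the 3 WT and 2 KO libraries. Points are libraries, shaped by replicate number, and lines are group means; Gja1 is tight in both groups, Gjb2 and Gjb6 are low in WT3, and the KO libraries of Gjb5 lie on either side of WT.

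Ordered by TPM (a level scaled by transcript length, so that levels can be set between genes), the WT levels were 95.1 ± 2.78 for Gja1, 87.4 ± 27.9 for Gjb2, 54.2 ± 0.99 for Panx1, 46.7 ± 1.74 for Gjb5, 8.58 ± 3.35 for Gjb6, 1.68 ± 0.31 for Gjc1 and 1.43 ± 0.55 for Gja4 (SD, n = 3). Gja1 and Gjb2 overlapped between libraries, as did Gjc1 and Gja4, while the other neighbours in this order did not overlap. In KO the TPM levels were 67.0 ± 2.77 for Gja1, 47.9 ± 4.98 for Gjb2, 46.8 ± 28.8 for Gjb5, 43.5 ± 8.09 for Panx1, 4.72 ± 0.59 for Gjb6, 0.66 ± 0.12 for Gja4 and 0.29 ± 0.35 for Gjc1 (SD, n = 2). The KO libraries of Gjb5 overlapped those of Gja1, Gjb2 and Panx1, and those of Gjb2 and Panx1 overlapped, so no order is read from them. Gja4 and Gjc1 were thus near the floor of detection in these cells, and the other 5 genes were well above it.

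Promoter sequences were set beside these values for Gja1, the gene that passed the test, and for Gjb2 and Gjb6, neighbours whose levels moved together across the libraries (below). RefSeq windows on GRCm38.p6 were matched for 6 of the 7 genes, and Gjc1 was not among them. Each line gives the 250 bases before the annotated start, 5′ to 3′ on the gene's strand, with a match to the AP-1 motif in capitals for Gja1 and matches to the GC box in capitals for Gjb2. AP-1 is the dimer of Fos and Jun proteins, and the GC box is the letters bound by Sp1. The windows are chr10:56377050-56377299 (plus strand) for Gja1, chr14:57104703-57104952 (minus strand) for Gjb2 and chr14:57133612-57133861 (minus strand) for Gjb6.
Gja1: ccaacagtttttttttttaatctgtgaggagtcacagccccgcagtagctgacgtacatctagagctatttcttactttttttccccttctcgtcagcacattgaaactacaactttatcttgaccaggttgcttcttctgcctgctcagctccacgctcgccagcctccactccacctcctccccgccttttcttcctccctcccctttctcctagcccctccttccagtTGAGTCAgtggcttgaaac
Gjb2: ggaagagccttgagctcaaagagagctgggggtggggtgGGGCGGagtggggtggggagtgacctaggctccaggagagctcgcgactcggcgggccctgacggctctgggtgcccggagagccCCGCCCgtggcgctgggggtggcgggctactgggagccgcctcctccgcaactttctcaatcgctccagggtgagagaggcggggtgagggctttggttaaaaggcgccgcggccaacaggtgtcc
Gjb6: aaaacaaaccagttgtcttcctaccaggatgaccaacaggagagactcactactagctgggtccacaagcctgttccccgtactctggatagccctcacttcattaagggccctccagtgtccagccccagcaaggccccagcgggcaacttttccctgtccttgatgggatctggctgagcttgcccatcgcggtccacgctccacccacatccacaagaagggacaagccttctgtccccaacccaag

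Gja1 held 1 match to TGANTCA, 19 to 13 bases before the start, which 6.75% of 32851 promoter windows of this length held at least once. Gjb2 held 2 matches to GGGCGG, 211 to 206 and 126 to 121 bases before the start, the second on the opposite strand; 32.7% of windows held at least 1. Gjb6 held neither motif, and none of the 3 windows held TATAAA, which 12.4% of windows did. Both strands were searched, and the 3 motifs do not overlap in these windows. G and C made up 50% of the Gja1 window, 69.2% of that of Gjb2 and 56.8% of that of Gjb6. A match is a description of letters, and binding was not measured.

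Gja1 (NCBI gene 14609) encodes connexin 43, a connexin of many tissues. The deposited table places it on GRCm38.p6 chromosome 10 at 56377300 to 56402513, while RefSeq ends it at 56390419. The deposited span overlaps 0 other genes of the table, and what the wider span adds to the counts was not tested. WT1, WT2 and WT3 gave 150.2, 152 and 144 CPM, and KO1 and KO2 gave 109.7 and 103 CPM. The groups did not overlap, and the libraries within each lay close together. The fall of Gja1 came to a log2 change of -0.48 ± 0.07 (SE), or 1.40-fold (edgeR, adjusted p = 0.00663), resting on 9193 counts in WT and 4374 in KO. With 1 library left out its log2 change lay between -0.54 and -0.43 and its adjusted p was at most 0.0473 (edgeR), and with a separate spread for each group it was 0.019 (limma-voom). Over all its alternatives the adjusted p ran from 1.78e-06 (DESeq2) to 0.0785 (edgeR with the replicate block), the last being the only fit in which Gja1 did not pass. It was the gene of the 7 whose change depended least on which KO library was used.

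Gjb2 (NCBI gene 14619, chromosome 14, 57098602 to 57104702) encodes connexin 26. Its level was 115 CPM in WT1, 132 in WT2 and 67.9 in WT3, against 54.4 in KO1 and 62.8 in KO2. The KO libraries lay below all WT libraries, but WT3 was far nearer to them than to WT1 and WT2. WT3 was also the lowest of the WT libraries in summed immune markers, at 0.63 CPM against 7.29 and 6.63. Cd74, a large part of that sum, gave 0.097 CPM against 4.92 and 3.92. Differentiation markers were lowest in WT3 too (607 CPM against 677 and 840), as were the fibroblast and melanocyte sums by less. Fbln2 carried most of the fibroblast sum, and some fibroblast genes of low level differed more. Col1a1 gave 0.146 CPM in WT3 against 1.46 in WT1 and 1.597 in WT2, and Col1a2 gave 0 against 2.53 and 2.08. Dcn gave 0.0485 CPM in WT3 against 0.244 and 0.242. Sparc went the other way, with 31.8 CPM in WT3 against 24.5 and 19.1. Pericyte and smooth muscle markers were highest in WT3 (394 CPM against 347 and 346), and basal and endothelial markers lay between WT1 and WT2. The part of these differences in the levels of Gjb2 and Gjb6 was not tested. The log2 change was -0.84 ± 0.29 (SE) and did not pass (adjusted p = 0.0679 by edgeR). The call depended on the library and the tool: the adjusted p was 0.0274 without WT3 and 0.039 without KO2 by edgeR, 0.0186 with DESeq2 and 0.408 with a separate spread per group (range over its alternatives 0.0186 to 0.408).

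Gjb6 (NCBI gene 14623, chromosome 14, 57123301 to 57133611) encodes connexin 30, which shares channels with connexin 26 in the inner ear, and is separated from Gjb2 by 18598 bases. WT1 held 7.99 CPM, WT2 11.9 and WT3 5.24, and KO1 held 4.503 and KO2 5.17. WT3 lay next to the KO libraries here too. Its log2 change was -0.79 ± 0.36 (SE) and did not pass (adjusted p = 0.136 by edgeR; range over its alternatives 0.066 to 0.601). Without WT2 the log2 change was -0.45.

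Across the 5 libraries Gjb2 and Gjb6 followed similar profiles. Set against its own WT mean on the log2 CPM scale, Gjb2 stood at 0.19, 0.39, -0.57, -0.89 and -0.69 in WT1, WT2, WT3, KO1 and KO2. Gjb6 stood at 0.01, 0.58, -0.59, -0.80 and -0.61 in the same order. The ratio of their TPM values was 11.6, 9.12 and 10.5 in the WT libraries (10.4 ± 1.22, SD, n = 3) and 10.3 and 10.0 in KO1 and KO2 (10.2 ± 0.23, SD, n = 2), so the ratio did not differ between groups beyond its spread. This ratio was chosen after the values were seen and was not tested. By the smallest root mean square difference of such profiles over the 5 libraries, each was the gene most like the other among 11030 genes compared (0.13 on the log2 scale). Next were Sprr2b, a cornified envelope precursor, for Gjb2 (0.169) and the adhesion G protein-coupled receptor Adgrf2 for Gjb6 (0.17).

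**Figure D2:**
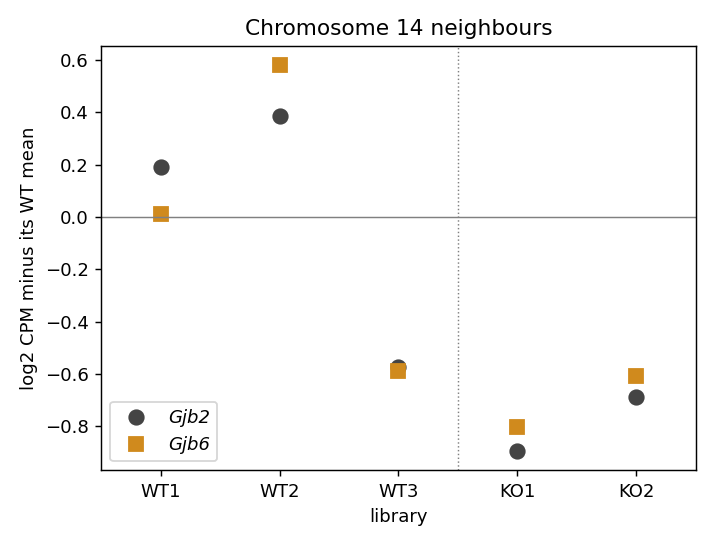
Log2 CPM of Gjb2 and Gjb6, neighbours on chromosome 14, in each library, relative to the mean of the 3 WT libraries (0 line); the dotted line parts WT from KO. The points of both genes move together, and WT3 lies at -0.57 and -0.59, near the KO libraries.

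Gjb5 (NCBI gene 14622) encodes a connexin of stratified epithelia and placenta. RefSeq places it on chromosome 4 at 127354809 to 127358164, while the deposited table gives it a wider span, 127330244 to 127368735, that overlaps the spans of 8 other genes, and lists the plus strand where RefSeq has the minus strand. How reads of the overlaps were divided is uncertain. The WT values were 40.2, 37.8 and 40.8 CPM (WT1, WT2, WT3), while KO1 had 57.9 CPM and KO2 22.7 CPM. The WT libraries were nearly alike, and the KO libraries stood on opposite sides of them. The log2 change of 0.03 ± 0.37 (SE, adjusted p = 0.964 by edgeR) compares mean levels, 39.6 CPM in WT and 40.3 CPM in KO. It was 0.56 without KO2 and -0.81 without KO1. The sign of the change with all libraries is not stable: it was 0.04 under the other scalings and -0.13 with limma-voom. The genes with the most similar profile were Rnf43, a ubiquitin ligase that limits Wnt signalling (0.0472), and the potassium channel gene Kcnk1 (0.0846).

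Gja4 (NCBI gene 14612, chromosome 4, 127311420 to 127314039) encodes connexin 37, known from arterial endothelium and from the oocyte. Its deposited span overlaps those of 6 other genes of the table, and how reads of the overlaps were divided is uncertain. Levels were low throughout: 0.682 CPM in WT1, 1.55 in WT2, 1.36 in WT3, 0.489 in KO1 and 0.628 in KO2. WT1 lay closer to the KO libraries than to WT2 and WT3. The log2 change was -1.09 ± 0.45 (SE) and did not pass (adjusted p = 0.108 by edgeR; range over its alternatives 0.0641 to 0.561). These values rest on 74 counts over WT and 23 over KO, a ratio of KO to WT of 0.467 with a 95% counting interval of 0.279 to 0.754 (exact binomial, counting error only). Endothelial markers were near the floor in both groups, summing over 9 genes to 5.85 to 6.29 CPM in WT and 5.09 and 5.46 CPM in KO1 and KO2, with Emcn at 0 in all WT libraries and Cldn5 at 0 in both KO libraries. Of the 3 endothelial markers tested Kdr fell (log2 change -1.54) and Tie1 rose (1.10, edgeR adjusted p = 0.0484). Both calls were lost without WT1, WT2 or WT3, and that of Tie1 in 10 of 14 alternatives.

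Gjc1 (NCBI gene 14615, chromosome 11, 102799477 to 102819686) encodes connexin 45, a connexin of the embryonic heart, conducting tissue and smooth muscle. WT1 had 1.997 CPM, WT2 1.40 and WT3 1.84, KO1 had 0.672 and KO2 had 0.0488. Both KO libraries lay below WT, and KO2, with 1 count, was at the limit of detection. The log2 change was -2.24 ± 0.77 (SE) and did not pass (adjusted p = 0.0658 by edgeR; range over its alternatives 0.000634 to 0.172). It passed with DESeq2 (adjusted p = 0.0315), with limma-voom (0.0437), on TPM, and without either KO library, with log2 changes of -1.33 without KO2 and -5.02 without KO1. Over 108 counts in WT and 14 in KO1 the ratio of KO1 to WT was 0.392 (95% counting interval 0.207 to 0.687), and that of KO2 was 0.0276 (0.000693 to 0.157). The most similar profiles were those of the mitotic kinesin Kif2c (0.14) and the mitotic kinase Plk1 (0.167). Kif2c gave 4.69 CPM in KO2 against 22.9 in KO1, and Plk1 13.5 against 65.4 CPM. Both were picked for likeness to Gjc1 over these libraries, so this shared order follows from the choice.

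Panx1 (NCBI gene 55991) encodes pannexin 1, the ATP release channel that caspases open by cleavage in dying cells. RefSeq places it on chromosome 9 at 15005785 to 15045478 on the minus strand, while the deposited table starts it at 15000944 and lists the plus strand. Its CPM was 55.8, 55.3 and 57.5 over the WT libraries (WT1, WT2, WT3), 51.9 in KO1 and 39.7 in KO2. KO1 lay just below the WT libraries and KO2 well below them. The log2 change was -0.30 ± 0.13 (SE) and did not pass (adjusted p = 0.113 by edgeR; range over its alternatives 0.000348 to 0.257). It passed without KO1 (log2 change -0.51, adjusted p = 0.000348 by edgeR) and not without KO2 (-0.10). The most similar profiles were those of D8Ertd738e (0.00493) and the kinase gene Map4k4 (0.0201).

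**Figure D3:**
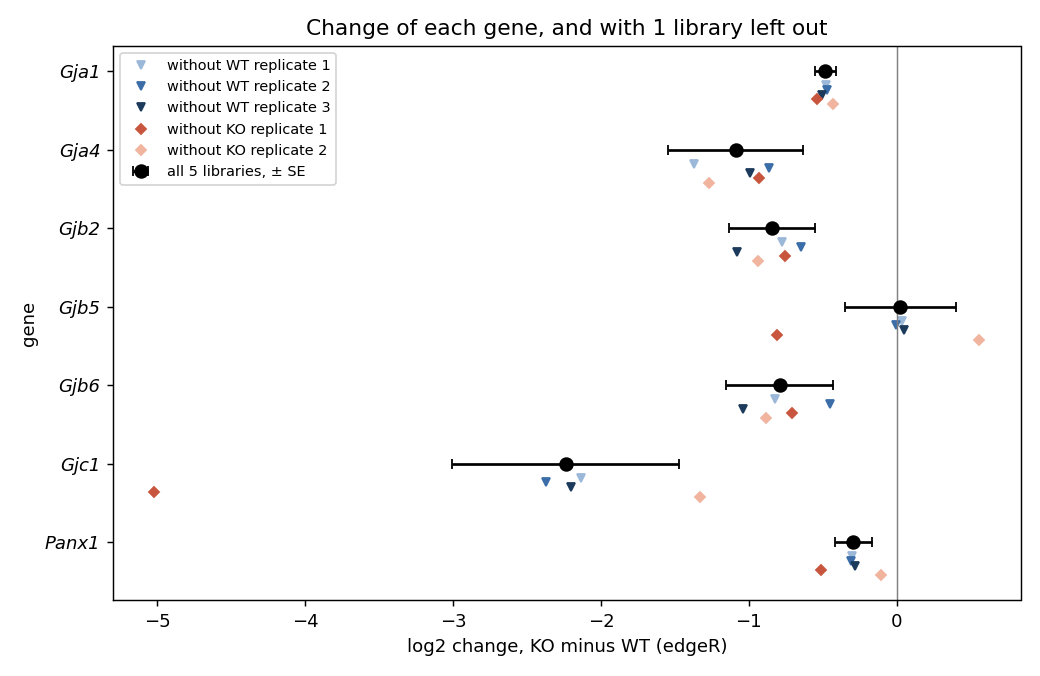
Log2 change from WT to KO of the 7 genes by edgeR (black circles, bars ± SE, all 5 libraries), with the value when 1 library is left out below each (triangles for WT, diamonds for KO). Gja1 stays between -0.54 and -0.43, whereas Gjb5 changes sign with the KO library that is used and Gjc1 ranges from -5.02 to -1.33.

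Of 12 further connexin and pannexin genes listed, 8 were in the table and 2 were tested, of which 0 were called by edgeR and 0 by DESeq2 (0 also at an unadjusted p under 0.05). Mean levels of Gjc3 were 0.842 CPM (WT) and 0.682 CPM (KO), with a log2 change of -0.30, and those of Gje1 were 1.10 and 1.28 CPM, with a log2 change of 0.23. The other 6, Gja5, Gja6, Gjb1, Gjd3, Gjd4 and Panx2, were under 1 CPM in every library and were not tested. Gja3, Gja10, Gjd2 and Panx3 were not analysed here.

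Summed over the 13 connexin genes analysed here, the TPM came to 252.8, 269.3 and 207.2 for WT1, WT2 and WT3, to 188.8 for KO1 and to 151.2 for KO2. The sums of the groups did not overlap, and KO2 was the lowest. This sum does not hold every connexin, so the shares below describe only these genes among themselves. Gja1 made up 38.0, 36.2 and 44.4% of it over WT1, WT2 and WT3, 36.6% in KO1 and 43.1% in KO2. Gjb2 made up 37.9, 40.9 and 27.2% of WT1, WT2 and WT3, 23.5% of KO1 and 34.0% of KO2. Gjb5 made up 18.8, 16.6 and 23.2% over the WT libraries, 35.6% in KO1 and 17.5% in KO2. For each of these 3 genes the groups overlapped, and the difference between group means was within 1 SD of the KO libraries. Gjb6 stayed at 2.28 to 4.48% in all 5 libraries. An exact permutation test of 3 against 2 libraries could not reach 0.05, and these shares are given without a test.

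**Figure D4:**
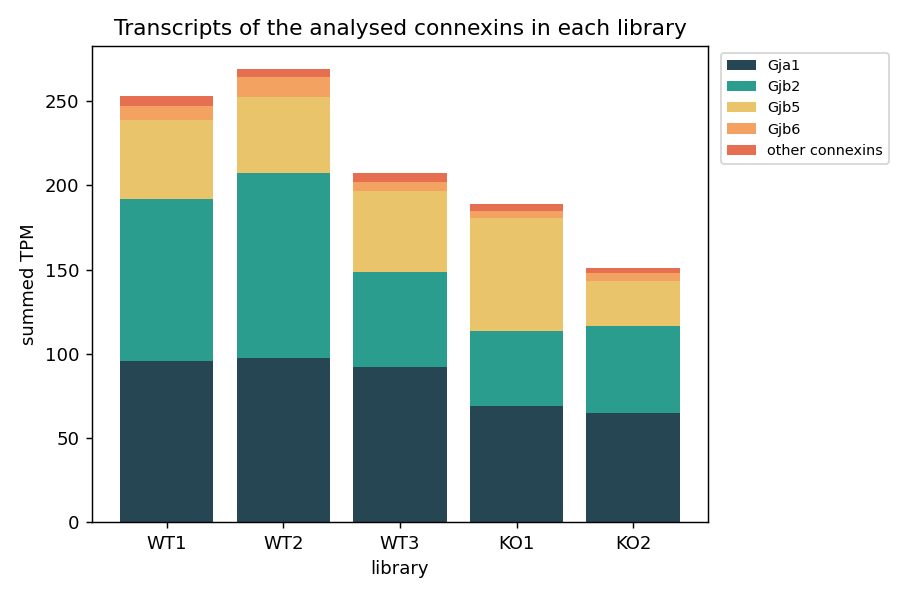
Summed TPM (scaled by transcript length, linear axis from 0) of the 13 connexin genes analysed here in each library, stacked by gene. The stacks reach 207.2 to 269.3 in WT and 188.8 and 151.2 in KO1 and KO2; Gja1, Gjb2 and Gjb5 make up most of each stack.

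Of 15 tested genes that hold gap junctions in place and turn them over, 3 rose, 4 fell and 8 did not pass, with a median log2 change of -0.12. These counts are near the share over all tested genes (20.4% in each direction). Tjp1, which encodes the scaffold ZO-1 that binds the tail of connexin 43, fell from 225, 223 and 231 CPM over the WT libraries to 136 and 134 CPM over the KO libraries (log2 change -0.74, edgeR adjusted p = 0.00266). Ezr, the membrane-actin linker ezrin, fell by 0.95 on the log2 scale. Cdh1, the E-cadherin of adherens junctions on which gap junction assembly depends, rose by 0.56, and the actin binder Dbn1 (drebrin) rose from 0.923 to 23.0 CPM (log2 change 4.63). Leaving out WT1, WT2 or WT3 left 1, 1 or 1 higher and 2, 3 or 3 lower. Of all tested genes, these fits called 7.62, 8.81 and 8.68% higher and 7.6, 8.94 and 8.77% lower. The call of Cdh1 was lost without WT1, WT2 or WT3, and Dbn1, Ezr and Tjp1 passed with each library left out.

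Among 10 kinases that phosphorylate connexins or act near them 2 rose, 3 fell and 5 did not pass (median log2 change -0.04), again near the 20.4% in each direction over all tested genes. On the log2 scale Mapk3 (ERK1) rose by 0.59 and Mapk7 (ERK5) by 0.57, while Rock1, a kinase of actin contraction, fell by 0.47. Cdk1, the mitotic kinase, gave 142, 138 and 144 CPM over the WT libraries, 51.4 in KO1 and 16.9 in KO2, and fell by 2.05 (edgeR, adjusted p = 0.021). The call of Cdk1 was lost without WT1, WT2 or WT3 (adjusted p = 0.0694 to 0.074 by edgeR), and its log2 change was -3.07 without KO1 and -1.45 without KO2. The calls of Mapk3 and Mapk7 were lost without WT1. With WT1, WT2 or WT3 omitted, 0, 2 and 2 were higher and 1, 1 and 1 lower. The shares over all tested genes in these fits were 7.62, 8.81 and 8.68% higher and 7.6, 8.94 and 8.77% lower.

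For the ATP that pannexin channels release, 14 genes of receptors, ectoenzymes and caspases were tested, of which 2 rose, 2 fell and 10 did not pass (median log2 change 0.02). Neither count exceeds the 20.4% in each direction over all tested genes. Entpd2, an ectoenzyme that hydrolyses ATP, rose by 0.98 on the log2 scale (3.90 to 7.68 CPM), and the ADP receptor P2ry1 fell by 0.86 (9.14 to 5.04 CPM). Adk, which phosphorylates adenosine inside cells, fell by 0.33. The adenosine receptor Adora2a rose from 3 counts over WT to 70 over KO, a ratio of 35.1 (95% counting interval 11.5 to 174, counting error only). KO1 held 19 of these counts and KO2 held 51. With at most 0.0971 CPM in any WT library, Adora2a passed the filter on low counts only through KO. No fall could have been called for it, so its place among the 2 that rose cannot be judged against the background. The calls of P2ry1 and Adk were lost without WT1, WT2 or WT3, and that of Adora2a without WT1. Without WT1, WT2 or WT3 in turn, 1, 2 and 2 were higher and 0, 0 and 0 lower. Over all tested genes, 7.62, 8.81 and 8.68% were higher and 7.6, 8.94 and 8.77% lower in these fits.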

How the data were processed

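RNA-seq libraries (3 WT, 2 KO) were grouped by their titles. The authors deposited 1 table of 17657 genes. Per the submitters' processing notes, RSEM 1.3.1 and the build GRCm38.p6 were used; the deposited expected counts per gene are not all whole. The deposited TPM values were scaled by transcript length within each library by the authors, and their deposited FPKM values were not used. Neither aligner nor strand setting is given in the sources used here. RSEM divides reads that match several genes by probability, so genes with close copies share reads (32.1 to 34% of the gene values in a library were not whole).

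After rounding, expected counts entered edgeR 4.0.16 in R 4.3.3 (filterByExpr by group, TMM, quasi-likelihood test, two-sided, Benjamini-Hochberg over all 12957 tested genes). SEs came from the test statistic. Profiles were compared on log2 CPM (prior count 2) among genes with an average log2 CPM of at least 1, without predicted genes. Alternatives were DESeq2 1.42.0, limma 3.58.1 (voom, voom with a separate spread per group, log2(TPM + 1) and log2(TPM + 0.1)), 2 other scalings, other filters, the replicate number as a block and each library left out. No library was a copy of another: chi-square per degree of freedom was 3.39 to 6.31 between WT libraries and 106 between the KO libraries.

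Some genes of the lists are not reported here and are in no list count or sum; they stayed in the fit over all genes. The members and lists were chosen with earlier results of these data known. Named genes are Angptl4, the 7 members, the other connexin and pannexin genes analysed, up to 4 genes with the smallest p per pathway list and 2 per cell type list, and the 2 most similar profiles per member; not all are described. Krt5, Krt14 and Krt15 of the basal list, Sbsn, Tgm1, Fbln2, Col1a1, Col1a2, Dcn, Sparc, Acta2 and Pdgfrb were named after their values were seen. So were the untested pericyte and smooth muscle genes.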

Additional observations from a re-analysis of the deposited data

How the results depend on the processing

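Of the 7 genes, 6 kept their direction under every alternative that tested them (16, or 15 for Gja4 and Gjc1) and Gjb5 did not; Gjb6 and Gja4 passed in none. The stricter filter left out Gja4 and Gjc1. Whether the replicate numbers pair samples is not given; deviations of same-numbered libraries correlated at 0.00714 (WT1 with KO1) and 0.0676 (WT2 with KO2). With the replicate number as a block, where WT3 has no partner, 804 genes were higher and 794 lower in KO (6.21% and 6.13%), Gja1 was at adjusted p = 0.0785 and Gjb2 at 0.024 (edgeR), scaffold genes gave 1 higher and 2 lower, kinases 0 and 1, and ATP pathway genes 1 and 0. With a separate spread per group 1625 genes were higher and 1567 lower, and 1 ATP pathway gene was lower. The members lower numbered 3 with DESeq2 (Gja1, Gjb2 and Gjc1), and 2 (Gja1 and Gjc1) with limma-voom, log2(TPM + 1), log2(TPM + 0.1) and a mean TPM of at least 1. ATP pathway genes higher numbered 1 with the stricter filter and 1 with a mean TPM of at least 1. With 1 library left out, genes higher ranged from 980 to 3975 and lower from 977 to 4093, members higher from 0 to 1 and lower from 1 to 4, scaffold genes from 1 to 4 higher and 2 to 7 lower, kinases from 0 to 3 and 1 to 4, and ATP genes from 1 to 5 and 0 to 5. Gjb5 turned negative with limma-voom (-0.13), a separate spread (-0.13), the block (-0.10), log2(TPM + 1) (-0.14, also with a mean TPM of at least 1), log2(TPM + 0.1) (-0.15), without WT2 (-0.0075) and without KO1 (-0.81; 0.56 without KO2). The KO minus WT difference in share of the analysed connexins was 0.28 percentage points for Gja1 (-2.97 to 3.53 with 1 library left out), -6.51 for Gjb2 (-11.8 to -1.26) and 7.03 for Gjb5 (-2.01 to 16.1). The cause of these shifts was not tested. Depth limits Gja4 and Gjc1, with under 50 counts in every library.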
